A study of Homo sapiens with 9 samples.

Results

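In all, 10 genes of the chemokine system, 5 receptors and 5 ligands, were followed in MOLM13 cells exposed to either of 2 cereblon-directed drugs. The receptors were CCR1, CCR2, CX3CR1, CCR7 and CXCR4, and the ligands CCL2, CCL3, CCL4, CXCL8 and CXCL16. They were chosen by symbol, as the rows of both tables of drug against DMSO that bear these names, and all 10 of 10 were found once each among 59563 named genes. MOLM13 is an established human acute myeloid leukaemia line with monocytic features. One group of 3 libraries came from cells given the solvent DMSO, another of 3 from cells given 1 µM iberdomide (CC-220), and the last 3 from cells given 50 nM mezigdomide (CC-92480), all sampled after 72 h in RPMI1640 with fetal bovine serum. All groups share the same line and the same solvent. The drugs bind cereblon, which selects substrates for a ubiquitin ligase, and direct it to transcription factors of the Ikaros family.

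Chemokines are small secreted proteins that bind heptahelical receptors coupled to inhibitory G proteins and steer leukocytes along gradients. CCR2 brings monocytes out of the marrow and into inflamed tissue, CX3CR1 marks patrolling monocytes and many tissue macrophages, and CCR1 serves monocytes and neutrophils. CXCR4 holds haematopoietic and leukaemic progenitors in the marrow through CXCL12, and CCR7 guides lymphocytes and mature dendritic cells to lymph nodes.

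The authors' deposited tables hold no value per library, so the spread between replicates enters only through the standard error (SE) of each log2 fold change. Separate cultures are not stated for the replicate libraries, so the p-values measure only their spread, and that spread may be technical. Depths, inferred from genes whose mean fits a lone read, were about 20900000 to 25300000 counted reads. Of 12 markers of a myeloid line with monocytic features all were detected, with means in the authors' deposited table from 40.1 normalised counts for CD14 to 23353 for LYZ. Markers of other cell types were at or near 0 for CD2, CD3E, MS4A1, HBB and COL3A1, none with a mean above 0.242 in the authors' deposited table. NKG7 (1063), NCAM1 (718) and PECAM1 (4067) were exceptions, by their means in the same authors' deposited table.

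RefSeq (GRCh38.p14) gave promoter windows for 6 of the 10 genes, those of CCR1, CCR2, CX3CR1, CXCR4, CCL3 and CXCL8. The entries for CCR7, CCL2, CCL4 and CXCL16 were not found in the table used here. The sequences below are shown because the receptors CX3CR1 and CCR1 rose, CXCR4 fell and CXCL8 did not pass the test. Each lies upstream of the first start in both RefSeq and GENCODE 29, is written 5′ to 3′ on the gene's strand, and has motif matches in capitals. They cover chr3:39281736-39281985 (minus strand) for CX3CR1, chr3:46208397-46208563 (minus) for CCR1, chr2:136118166-136118399 (minus) for CXCR4 and chr4:73740319-73740505 (plus) for CXCL8.
CX3CR1: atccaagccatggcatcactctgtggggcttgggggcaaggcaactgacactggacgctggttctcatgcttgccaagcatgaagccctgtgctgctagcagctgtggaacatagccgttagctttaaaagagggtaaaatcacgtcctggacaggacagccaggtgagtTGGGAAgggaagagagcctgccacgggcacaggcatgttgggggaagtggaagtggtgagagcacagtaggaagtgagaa
CCR1: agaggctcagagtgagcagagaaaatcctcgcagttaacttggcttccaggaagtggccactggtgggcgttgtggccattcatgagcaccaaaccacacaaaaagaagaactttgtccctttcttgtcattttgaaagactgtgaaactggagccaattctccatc
CXCR4: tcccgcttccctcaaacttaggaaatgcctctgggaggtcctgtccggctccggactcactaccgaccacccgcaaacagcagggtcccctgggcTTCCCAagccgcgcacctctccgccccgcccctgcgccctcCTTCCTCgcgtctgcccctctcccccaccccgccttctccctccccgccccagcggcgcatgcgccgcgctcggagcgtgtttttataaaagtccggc
CXCL8: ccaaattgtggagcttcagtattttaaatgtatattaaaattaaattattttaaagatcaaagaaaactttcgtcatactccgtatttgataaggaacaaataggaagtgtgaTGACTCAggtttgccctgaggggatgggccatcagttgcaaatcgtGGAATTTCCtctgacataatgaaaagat

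The CCR2 window lies inside the first exon of longer GENCODE transcripts, so only the 30 bases that hold its motif matches are shown (chr3:46353899-46353928, plus strand).
CCR2: TGACTCAcactcaaggTTGCATAAgcaaga

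Motifs were searched on both strands, over 250 bases before to 50 after the RefSeq start. The 5 were GGANTTTCC for NF-kB, TGANTCA for AP-1, GAGGAAG for PU.1, TTNNGCAA for C/EBP and TGGGAA for Ikaros, none of which was merged with another where they overlapped. Among 35116 windows of the same length 1.64% held the first, 7.71% the AP-1 letters, 13.6% the PU.1 letters, 10.5% the C/EBP letters and 24% the Ikaros letters. The rising receptors had no motif that all of them held. CX3CR1 held the Ikaros letters 80 bases before its first start, and CCR1 none of the 5. CCR2 held the AP-1 letters 212 and, on the opposite strand, the C/EBP letters 196 bases before its start. CXCR4, which fell, held the Ikaros letters 155 and the PU.1 letters 114 bases before its first start, both on the opposite strand. CXCL8 held the AP-1 letters 137 and the NF-kB letters 91 bases before its start. CCL3, which fell under mezigdomide, held the C/EBP letters 116 bases before its first start, and the Ikaros letters on the opposite strand past another of its 3 starts. CXCR4 also held the Ikaros letters 221 bases before the third of its starts. These matches describe the sequence only.

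After iberdomide the monocyte receptors CX3CR1, CCR2 and CCR1 rose, while CXCR4, CCR7 and the monocyte attractant CCL2 fell. In all, 6 of the 10 genes passed an adjusted p of 0.05 in the authors' deposited table, 3 higher and 3 lower, where 14.1% of 19497 tested genes did so (7.3% higher and 6.77% lower). All 5 receptors passed, against 1 of 5 ligands. The ligands CCL2, CCL3, CCL4 and CXCL16 and the receptor CCR7 had means under 25 normalised counts, so receptors and ligands also differ in precision. The median log2 fold change over the 10 genes was -0.18 against -0.0095 over all genes tested. After mezigdomide 8 of 10 passed in the authors' deposited table, 4 higher and 4 lower, where 21.2% of 20819 tested genes did so (10.4% higher and 10.7% lower). The additional calls were both ligands, CCL3, lower, and CXCL16, higher. The median was -0.20 against -0.0070 over all genes tested. The comparisons share their DMSO libraries, so that their values stand side by side and are not independent. Calls rest on the Wald p-values of the authors, adjusted over all genes tested by the Benjamini-Hochberg method.

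**Figure D1:**
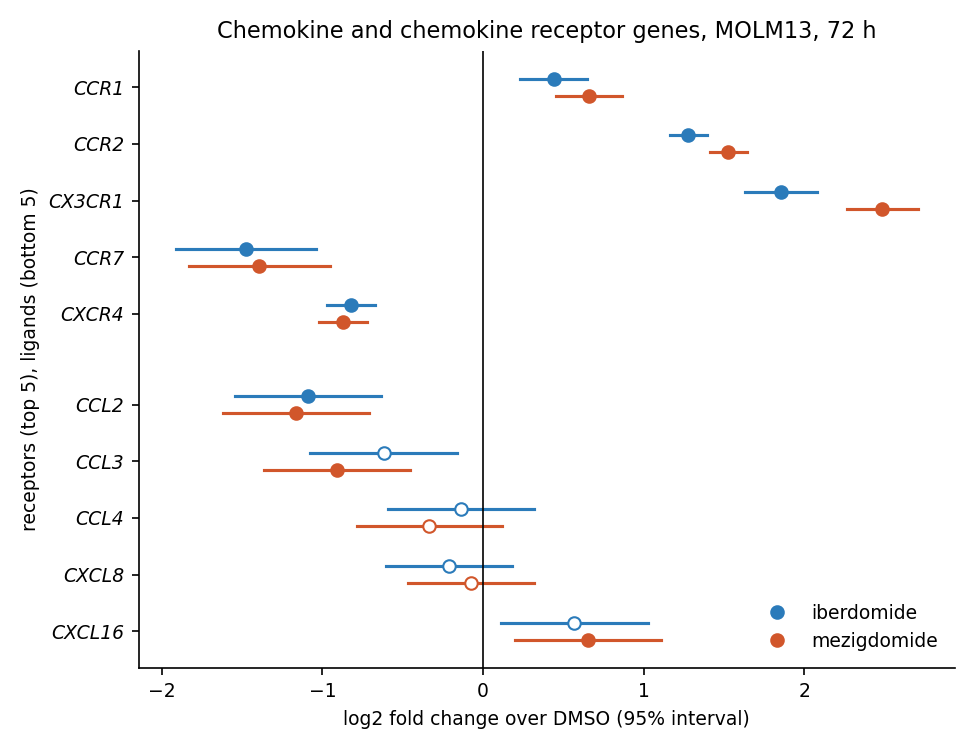
Log2 fold change over DMSO (horizontal axis) of the 5 receptors and 5 ligands, with 95% intervals from the deposited standard errors. Filled points passed an adjusted p of 0.05 and open points did not; CX3CR1 lies farthest right, at 1.86 under iberdomide and 2.48 under mezigdomide, and CCR7 farthest left, at -1.48 and -1.39.

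CX3CR1, the receptor of the membrane-bound chemokine fractalkine (chromosome 3, 39263494 to 39281735, GRCh38), changed most. Its estimated level, solved from the mean over all libraries and both fold changes, was 214 normalised counts under DMSO, 774 under iberdomide and 1196 under mezigdomide. On the log2 scale the authors' deposited table has rises of 1.86 (SE 0.11) and 2.48 (SE 0.11), or 3.62-fold and 5.60-fold. With both fold changes at the ends of their 95% intervals, the levels ranged over 186 to 245, 637 to 920 and 1045 to 1341. These ranges did not overlap between any of the 3 groups. They take the mean as exact and are not a test between the drugs. That test is given below, and CX3CR1 did not pass it with independent errors. By the size of the Wald statistic it stood 54th of 19497 genes under iberdomide and 32nd of 20819 under mezigdomide.

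CCR2, the receptor of CCL2 (chromosome 3, 46353734 to 46360928), was the most abundant of the 10 per length of exon under both drugs. Its estimated level rose from 1720 normalised counts under DMSO to 4171 under iberdomide and 4958 under mezigdomide. In the authors' deposited table these are rises of 2.43-fold (log2 1.28, SE 0.058) and 2.88-fold (log2 1.53, SE 0.058), with Wald adjusted p-values of 3.41e-105 and 3.83e-152. It ranked 22nd and 17th of all genes tested by the Wald statistic. Only 1.21% of the 37-base stretches of its longest transcript also occur in another gene.

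CCR1, which binds CCL3, CCL5 and CCL23 (chromosome 3, 46201709 to 46208396), rose less. Its estimated level was 803 normalised counts under DMSO, 1089 under iberdomide and 1270 under mezigdomide. The authors' deposited table gives 1.36-fold (log2 0.44, SE 0.11; Wald adjusted p = 0.000486) and 1.58-fold (log2 0.66, SE 0.11; adjusted p = 8.33e-09). Against a fold change of 1.5 in place of none neither rise passed (adjusted p = 1 for both).

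CXCR4, the receptor of CXCL12 (chromosome 2, 136114349 to 136118165), was the most abundant of the 10 under DMSO per length of exon. Its estimated level fell from 2033 normalised counts under DMSO to 1150 under iberdomide and 1112 under mezigdomide. The ranges of these levels were 1922 to 2145, 1035 to 1272 and 998 to 1232. The treated groups thus lay below DMSO and overlapped each other. The authors' deposited table puts it at 56.6% of DMSO under iberdomide (log2 -0.82, SE 0.077; Wald adjusted p = 1.20e-24) and at 54.7% under mezigdomide (log2 -0.87, SE 0.077; adjusted p = 6.32e-28). Against a fold change of 1.5 the fall passed under mezigdomide (Wald adjusted p = 0.00921) and not under iberdomide (0.104).

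CCR7, the lymph node homing receptor (chromosome 17, 40553769 to 40565472), was barely expressed and fell further. Its estimated level was 14.3 normalised counts under DMSO, 5.15 under iberdomide and 5.46 under mezigdomide. In the authors' deposited table it stood at -1.48 (SE 0.22; Wald adjusted p = 1.15e-09) and -1.39 (SE 0.22; adjusted p = 1.20e-08) on the log2 scale. Deposited fold changes are shrunk towards 0, most of all in genes this low, so that the fall and the DMSO level are understated. Among the 4240 genes with a mean of 5 to 25 normalised counts the mezigdomide fold changes in the authors' deposited table ran from -2.11 to 2.12, and 9.76% passed.

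**Figure D2:**
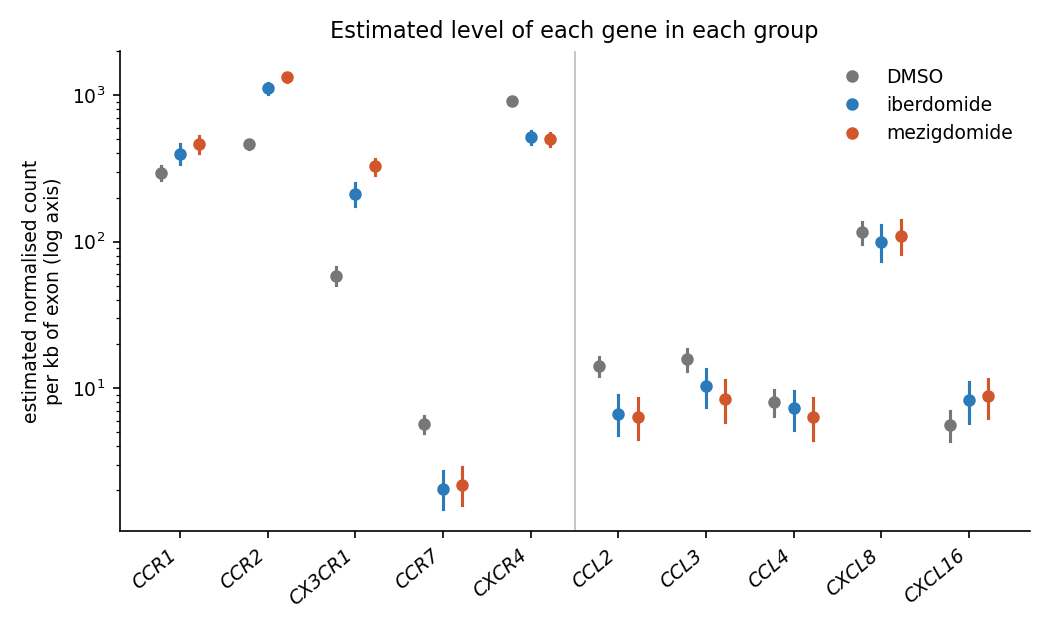
Estimated normalised count per kilobase of exon (vertical log axis) of each gene under DMSO, iberdomide and mezigdomide; bars span the lowest and highest level with both fold changes at the ends of their 95% intervals. CCR2 passes CXCR4 under both drugs, and CCR7 and all ligands but CXCL8 stay at or below 15.7 per kilobase in every group.

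Per kilobase of exon the order of the receptors changed. Under DMSO the estimated levels per kilobase were 914 for CXCR4, 461 for CCR2, 294 for CCR1, 58.5 for CX3CR1 and 5.72 for CCR7. Under iberdomide CCR2 led with 1117, followed by CXCR4 with 517, CCR1 with 399, CX3CR1 with 212 and CCR7 with 2.06. Mezigdomide gave the same order, with 1328, 500, 465, 327 and 2.18. The estimated ratio of CCR2 to CXCR4 transcripts per kilobase was therefore 0.504 under DMSO, 2.16 under iberdomide and 2.66 under mezigdomide. CXCR4 and CCR1 were neighbours that did not separate beyond their ranges under mezigdomide. Of the ligands CXCL8 stood highest per kilobase under DMSO, with 116, followed by CCL3 (15.7), CCL2 (14.3), CCL4 (8.004) and CXCL16 (5.59). Under mezigdomide the last 4 lay between 6.35 and 8.78 per kilobase, with overlapping ranges. In bulk RNA, a change in the share of cells with a transcript and a change in the RNA per cell cannot be told apart.

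Among the ligands, CCL2, the main attractant of CCR2-bearing monocytes (chromosome 17, 34255218 to 34257203), fell from an estimated 28.3 normalised counts under DMSO to 13.3 under iberdomide and 12.6 under mezigdomide. The authors' deposited table puts it at 46.9% of DMSO (log2 -1.09, SE 0.23; Wald adjusted p = 5.01e-05) and 44.6% (log2 -1.16, SE 0.23; adjusted p = 8.77e-06). Its groups under either drug overlapped and both lay below DMSO. Against a fold change of 1.5 neither fall passed (adjusted p = 1 and 0.404). That test used deposited fold changes, which are shrunk towards 0 in genes this low, so it does not show that the fall was small.

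CCL3 (chromosome 17, 36088256 to 36090169) and CCL4 (chromosome 17, 36103590 to 36105621), inflammatory chemokines, are neighbours. CCL3 was estimated at 23.5 normalised counts under DMSO, 15.3 under iberdomide and 12.5 under mezigdomide. In the authors' deposited table it passed under mezigdomide (log2 -0.91, SE 0.23; Wald adjusted p = 0.000930) and missed the threshold under iberdomide (log2 -0.62, SE 0.23; adjusted p = 0.0544). CCL4 stood at 16.3, 14.8 and 12.9 estimated counts and passed under neither drug (log2 -0.14 and -0.33, SE 0.23 each, in the authors' deposited table; Wald adjusted p = 0.824 and 0.355). The values of both are uncertain. In GENCODE 29, 74.6% of the exon bases of CCL3 also lie in the lncRNA AC243829.4 on the opposite strand, and the kit is not stated to keep strand. Of the 37-base stretches of CCL4, 14.04% also occur in another gene, chiefly its copy CCL4L2.

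CXCL8, the neutrophil attractant interleukin 8 (chromosome 4, 73740506 to 73743716), was the most abundant ligand of the 5 per length of exon. Its estimated level was 263 normalised counts under DMSO, 227 under iberdomide and 249.5 under mezigdomide, with ranges that overlapped in all 3 groups. Its log2 fold changes in the authors' deposited table were -0.21 (SE 0.20; Wald adjusted p = 0.623) and -0.074 (SE 0.20; adjusted p = 0.868). Their 95% intervals, -0.61 to 0.18 and -0.47 to 0.32, show that moderate changes in either direction were not detectable at this precision. The SE of CXCL8 was above the 95th percentile (0.175) of genes with a mean of 100 to 1000 normalised counts under mezigdomide.

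CXCL16, a membrane-anchored chemokine that also acts as a scavenger receptor (chromosome 17, 4733526 to 4739922), was low. It was estimated at 15.6 normalised counts under DMSO, 23.2 under iberdomide and 24.5 under mezigdomide. In the authors' deposited table it passed under mezigdomide (log2 0.65, SE 0.23; Wald adjusted p = 0.0275) and not under iberdomide (log2 0.57, SE 0.23; adjusted p = 0.0857). The mezigdomide call was lost with the Benjamini-Yekutieli adjustment.

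**Figure D3:**
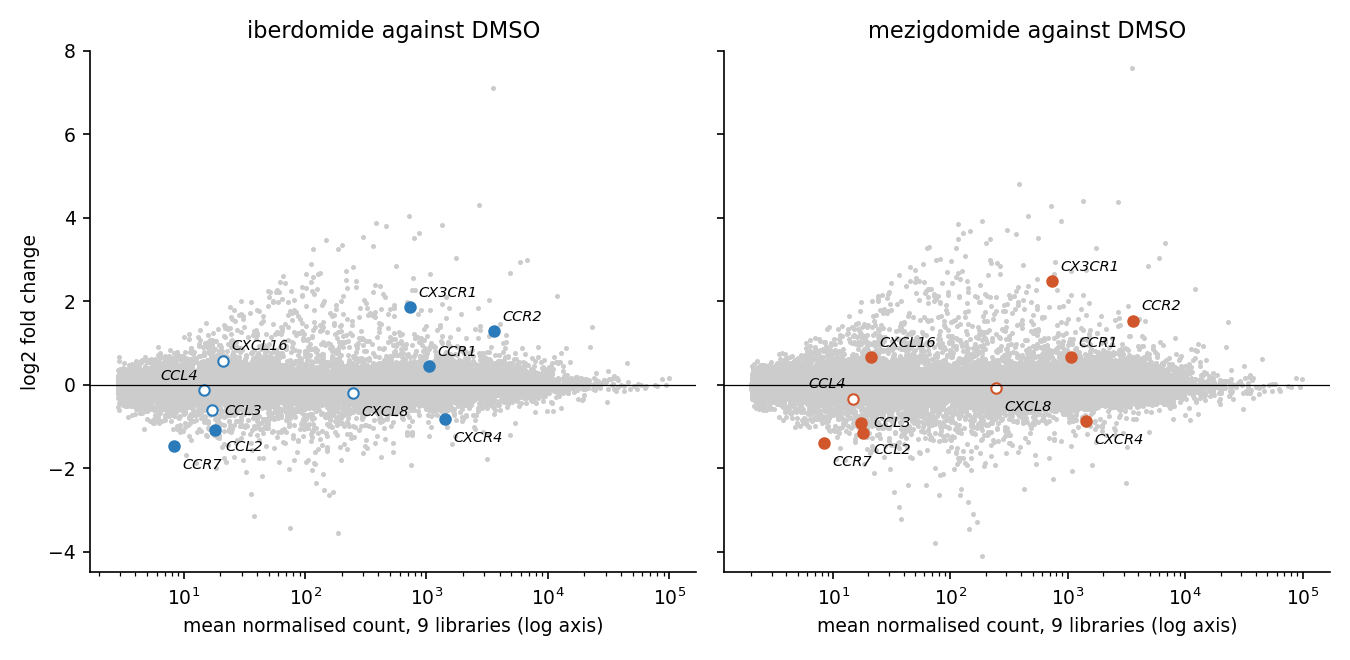
Log2 fold change (vertical axis) against the mean normalised count over 9 libraries (log axis) for all genes tested (grey) and the 10 chemokine and receptor genes (coloured; filled where the adjusted p was under 0.05). CCR7, CCL2, CCL3, CCL4 and CXCL16 lie below a mean of 25 normalised counts.

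The drugs were next set against each other, by subtracting each log2 fold change under iberdomide from that under mezigdomide. The doses differ (1 µM and 50 nM), so the differences hold for these doses and do not rank the compounds. With errors taken as independent, which overstates them because the DMSO libraries are shared, none of the 10 genes passed an adjusted p of 0.05, where 0.108% of 19497 genes did (0.0462% higher and 0.0615% lower). At an unadjusted p under 0.05 in this normal test 2 of them passed, CX3CR1 and CCR2. The share of all genes at that unadjusted threshold was not counted, so this count has no background beside it. CX3CR1 came nearest, 0.63 higher under mezigdomide (SE 0.16, 95% interval 0.31 to 0.94; normal test, Benjamini-Hochberg adjusted p = 0.0728). It passed with a correlation of 0.5 between the errors (adjusted p = 2.47e-05), where 0.605% of all genes passed (0.385% higher and 0.221% lower). CCR2 was 0.25 higher (interval 0.090 to 0.41), with an adjusted p of 0.766 for independent errors and 0.00527 for correlated ones. CCR1 was 0.22 higher (interval -0.071 to 0.51) and passed under neither assumption (adjusted p = 1.00 and 0.967). For CXCR4 the difference was -0.049 (interval -0.26 to 0.16), and for CCR7 it was 0.082 (-0.54 to 0.70). Among the ligands the differences ran from -0.29 for CCL3 (interval -0.93 to 0.36) to 0.14 for CXCL8 (-0.42 to 0.69). Thus the call of CCL3 and CXCL16 under 1 drug only does not show that the drugs differ in them.

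Several of the 10 genes lie in clusters, and their neighbours did not share their changes throughout. CCR1 and CCR2 rose within the receptor cluster of chromosome 3. CCR3, whose gene spans CCR1 on the other strand, stood at 0.0097 and 0.26, and CCRL2 at -0.22 and -0.27 in the authors' deposited table, neither of them called. In the ligand cluster of chromosome 17, CCL23, a ligand of CCR1, fell (-0.92 and -0.97, SE 0.14 each) in the authors' deposited table. The near-copy CCL3L3, with a mean of 121 normalised counts, stood at -0.47 (Wald adjusted p = 0.173) and -1.09 (adjusted p = 1.85e-05), and CCL4L2 at -0.38 (0.339) and -0.60 (0.0476), in the authors' deposited table. Both copies are uncertain too. Of the 37-base stretches of CCL3L3 35.4% also occur in another gene, chiefly AC243829.1, and of those of CCL4L2 21.0%, chiefly CCL4. CCL1, 103125 bases from CCL2, fell (-0.82 and -0.91, mean 4.94) in the same authors' deposited table.

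**Figure D4:**
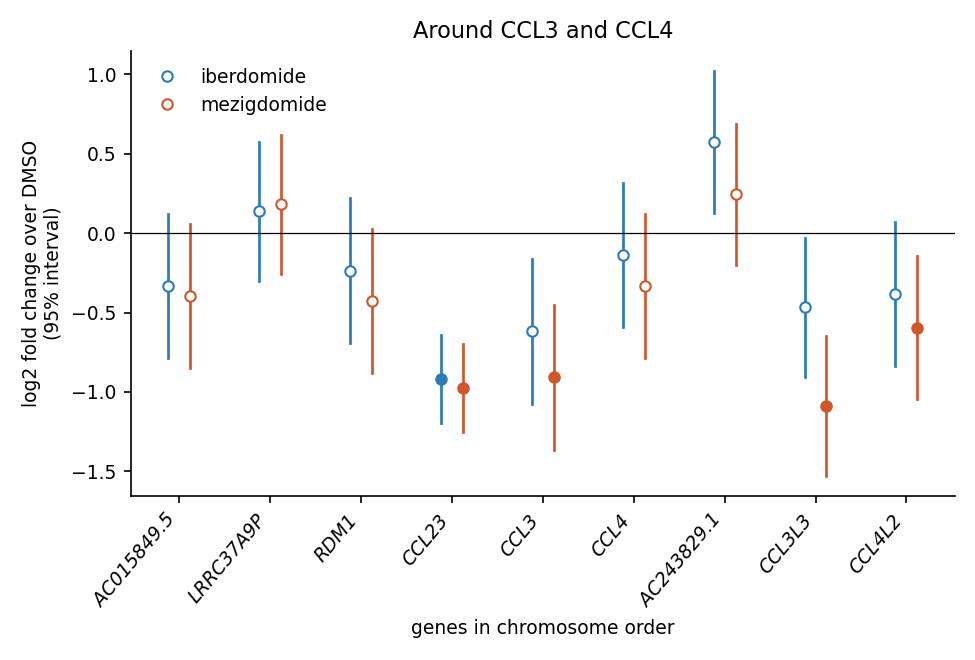
Log2 fold change over DMSO with 95% intervals for genes whose mean reached 3 normalised counts, within 200 kb of CCL3 or CCL4, in chromosome order; filled points had an adjusted p under 0.05. CCL23 is filled under both drugs, and CCL3, CCL3L3 and CCL4L2 under mezigdomide.

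Several partner ligands of the 5 receptors were at or near 0 in these cells. CXCL12, the ligand of CXCR4, had a mean of 0.222 normalised counts, CX3CL1, the ligand of CX3CR1, 0.321, and CCL19, a ligand of CCR7, 0.125 in the authors' deposited table. By the authors' deposited table CCL21, the other CCR7 ligand, rose by 0.64 (SE 0.22) and 1.11 (SE 0.22), from an estimated level of only 4.46 normalised counts under DMSO. Ligands of CCR1 were detected, CCL23 among them, and CCL5 was the highest. With a mean of 2943 normalised counts it was the most abundant chemokine, and it fell to 45.8% of DMSO under iberdomide (log2 -1.13, SE 0.14) and 45.1% under mezigdomide (log2 -1.15, SE 0.14) in the authors' deposited table. Of its 37-base stretches 21.7% also occur in another gene, chiefly AC027290.2. For the ligands, CXCR2, a receptor of CXCL8, had a mean of 553 normalised counts and did not pass (0.031 and 0.12; Wald adjusted p = 0.903 and 0.352), and CXCR6, the receptor of CXCL16, had a mean of only 3.90 in the authors' deposited table.

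Of 43 other chemokines 41 were in the tables, 29 of them with a mean under 3 normalised counts. Under iberdomide 13 were tested, of which 1 rose and 5 fell, and under mezigdomide 14, of which 1 rose and 7 fell, in the authors' deposited table. Of all genes tested 7.3% rose and 6.77% fell under iberdomide, and 10.4% and 10.7% under mezigdomide. These shares stand beside all counts of adjusted calls in this paragraph. CCL21 was the 1 other chemokine that rose. CCL5, CCL23, CCL28, CCL1 and CXCL11 fell under both drugs, and CCL3L3 and CCL4L2 under mezigdomide. CCL28, a mucosal chemokine, stood at -0.29 and -0.47 (SE 0.095 and 0.096), and CXCL11, an interferon-induced ligand of CXCR3, at -0.60 and -0.58 with a mean of 2.92, in the authors' deposited table. Of 13 other chemokine receptors 8 and 9 were tested, with no call under iberdomide and 1, the fall of CCR8 (-0.61, SE 0.17, mean 2.702), under mezigdomide in the authors' deposited table. Under iberdomide CCR8 stood at -0.63 (SE 0.16; unadjusted Wald p = 0.000106) in the authors' deposited table, which gives it no adjusted p there, so that no difference between the drugs is shown. At an unadjusted Wald p under 0.05, 0 of the 8 receptors tested under iberdomide and 1 of the 9 under mezigdomide passed. Of 6 atypical receptors, which bind chemokines without G protein signals, 2 and 4 were tested. None was called by the Wald test, nor did any have an unadjusted p under 0.05. For the counts at an unadjusted p, the share of all genes was not counted, so they have no background here. Receptors of other attractants had 1 of 14 higher and 4 lower under iberdomide, and 1 and 5 under mezigdomide, in the authors' deposited table. The sphingosine phosphate receptor S1PR3 (-0.76 and -1.05) and the complement receptor C5AR2 (-0.94 and -0.80) fell, as did S1PR4 (-0.41 and -0.44), and GPR183, an oxysterol receptor, rose under iberdomide (0.41) and did not pass under mezigdomide (0.21; Wald adjusted p = 0.150), in the authors' deposited table.

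Genes that act behind the receptors changed in both directions. Of 31 G proteins and effectors tested, 11 rose and 5 fell under iberdomide and 14 rose and 6 fell under mezigdomide in the authors' deposited table, with medians of 0.14 and 0.15. The Src family kinase FGR stood at 1.23 and 1.89 (SE 0.12 each), the gamma PI3-kinase adaptor PIK3R5 at 0.56 and 0.74, and JAK2 at 0.43 and 0.70, while the G protein gamma subunit GNG2 fell (-0.81 and -0.37), in the authors' deposited table. The abundant alpha subunit GNAI2, which couples these receptors, was not called (0.14 under each drug; Wald adjusted p = 0.219 and 0.165). Of 20 genes of receptor desensitisation and other receptor regulation, 2 rose and 6 fell under iberdomide and 4 and 8 did so under mezigdomide, by the authors' deposited table. RGS16, a GTPase activator, fell (-1.17 and -1.32, SE 0.17 each), and the receptor kinases GRK5 (-0.59 and -0.60) and GRK3 (0.43 and 0.55) moved in opposite directions, in the authors' deposited table.

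Of 33 migration and actin genes, 3 rose and 6 fell under iberdomide and 5 and 6 under mezigdomide, shares of 27.3% and 33.3%, in the authors' deposited table. The engulfment and motility adaptor ELMO1 (-0.59 and -0.46) and the Rap activator RASGRP2 (-0.35 and -0.46) fell, and the actin-nucleating ACTR2 rose (0.27 and 0.34), by the authors' deposited table. The focal adhesion kinase PTK2 stood at -0.19 under iberdomide (Wald adjusted p = 0.157) and fell by 0.51 under mezigdomide in the authors' deposited table. Of 11 genes of chemokine shedding, processing and binding, 3 and 5 rose and none fell by the Wald calls of the authors' deposited table. They included the heparan sulphate carriers SDC2 (0.59 and 0.69) and SDC4 (0.43 and 0.33) and the protease MMP2 (0.72 and 0.85) in the authors' deposited table. ADAM10, which sheds CX3CL1 and CXCL16, stood at 0.089 under iberdomide (Wald adjusted p = 0.499) and rose by 0.19 under mezigdomide (adjusted p = 0.0336), by the authors' deposited table. Of 20 genes that control chemokine transcripts, 2 rose and 5 fell under iberdomide and 3 and 7 under mezigdomide, by the authors' deposited table. The NF-kB inhibitor TNFAIP3 (-0.63 and -0.66), the RNA decay factor ZFP36L1 (-0.84 and -0.66) and ATF3 (-0.45 and -0.72) fell, and IRF8, a monocyte transcription factor, rose (0.53 and 0.58), in the authors' deposited table. No test of these lists was made, and their shares stand beside 14.1% and 21.2% of all genes tested. The share called in either direction depended on level. Under mezigdomide it was 2.31% at means of 2 to 5 normalised counts and 9.76% at 5 to 25. At means of 100 to 1000 it was 32%, and 29.9% at 1000 or more. Shares of lists of abundant genes are thus not raised merely by lying above 21.2%.

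**Figure D5:**
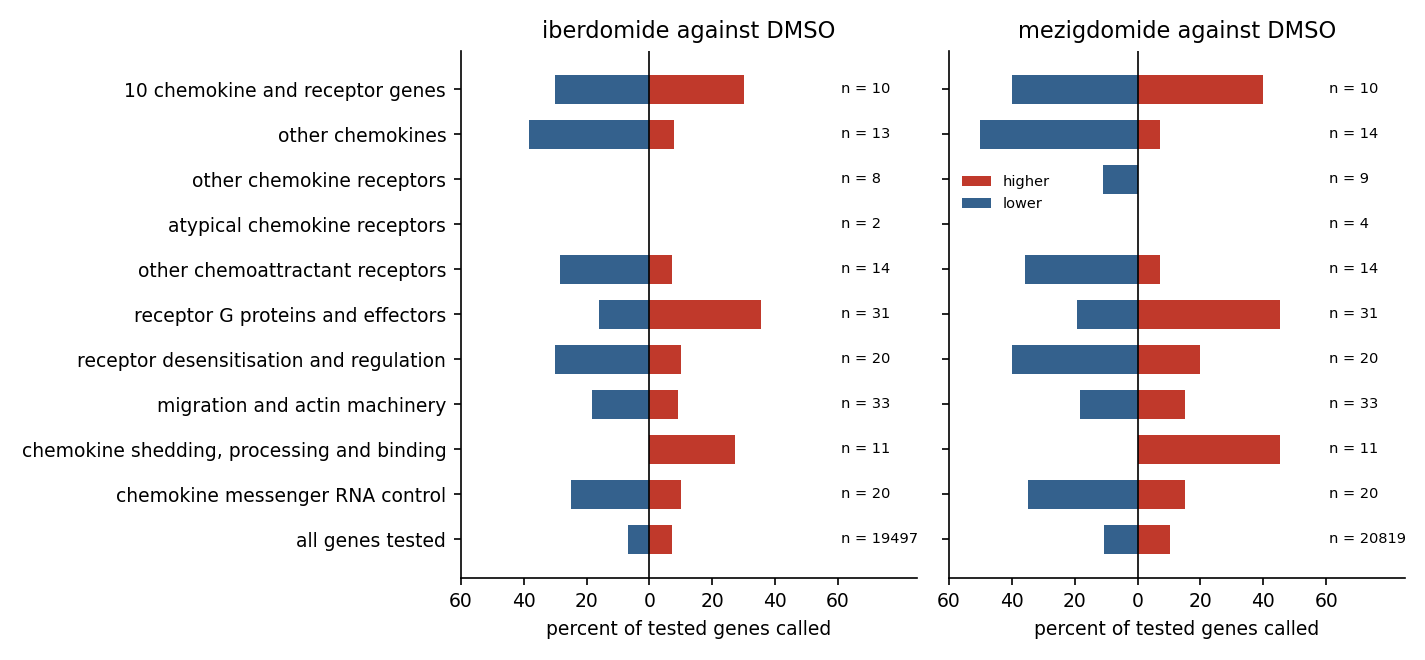
Percent of the tested genes of each list that were called higher (right of 0) or lower (left of 0) under iberdomide (left panel) and mezigdomide (right panel), with the number tested. Of all genes tested, 7.3% and 10.4% were higher and 6.77% and 10.7% lower.

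Part of the markers of the line rose as well. Of the 12 myeloid markers 7 rose under iberdomide and 6 under mezigdomide, with none lower, in the authors' deposited table. The other 5 and 6 were not called. Of all genes tested, 7.3% and 10.4% were higher and 6.77% and 10.7% lower, which stands beside every count of markers here. Among genes with a mean of 100 to 1000 normalised counts, 32% were called in either direction under mezigdomide. The summed estimated level of the 12 was 56133 normalised counts under DMSO, 83629 under iberdomide and 89227 under mezigdomide. LYZ had the highest mean of the 12 over all libraries (23353), so its rise weighs heavily in these sums. LYZ stood at 1.39 and 1.51, MPO at 0.91 and 1.11 and CSF1R at 1.34 and 1.54 in the authors' deposited table. SPI1 (0.026 and -0.00064) and ITGAM (-0.32 and 0.045) were among those not called, in the same authors' deposited table. T and NK cell markers summed to 1808, 1826 and 1771, with CD2 at 0, and B cell markers to 59.6, 65.5 and 61.6, by the same estimate. Of the 3 T and NK cell markers tested 1 passed under each drug, the fall of the T cell receptor subunit CD3D (-0.85 and -1.25, SE 0.23 each, mean 19.1) in the authors' deposited table. Erythroid and megakaryocyte markers summed to 26.0, 30.8 and 34.3, with HBA1 and HBB at 0. Of 3 tested, ITGA2B, the platelet integrin, stood in the authors' deposited table at 0.34 under iberdomide (Wald adjusted p = 0.426) and rose under mezigdomide (0.66; adjusted p = 0.0247). Stromal and endothelial markers summed to 3483, 4310 and 4879, most of it PECAM1. All 4 tested members of that list passed under iberdomide and 3 under mezigdomide. COL1A1, a fibroblast collagen, rose (1.41 and 1.49), as did PECAM1 (0.30 and 0.48), and VWF, an endothelial clotting factor, fell (-0.72 and -0.74), in the authors' deposited table. In the authors' deposited table PDGFRB, a pericyte receptor, fell under iberdomide (-0.66) and did not pass under mezigdomide (-0.42; Wald adjusted p = 0.154). The part of these shifts in the changes of the chemokine genes was not tested.

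Among 10919 genes whose mean reached 100 normalised counts, the genes nearest to CCR2 in both log2 fold changes were ARRDC4 (distance 0.059), CSF1R (0.066) and SORL1 (0.078). For CXCR4 they were TENT5C (0.016), CLIP2 (0.021) and TRIB3 (0.029). The distance is Euclidean over only 2 comparisons that share their controls, and it is given as a description.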

How the data were processed

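RNA of 9 MOLM13 libraries, 3 each for DMSO, iberdomide and mezigdomide, had been sequenced. The submitters' processing notes list, without role or order, DESeq2, HTSeq 0.6.1pl, STAR 2.7.5a, Picard 2.9.4, bcl2fastq 2.20.0.422, SAMtools 1.95 and the build GRCh38. For annotation, counting options and strand setting, the sources used here state nothing.

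The authors deposited 1 table per drug against DMSO, with 59699 rows each and, per the file headers, the columns of a DESeq2 result. The mean normalised count is a signal the authors averaged over all libraries. The log2 fold change and its SE are the authors' values, shrunk towards 0 as the values themselves show. The Wald statistic is a deposited score, and the p-value and its Benjamini-Hochberg adjustment are the authors' too. Rows with no gene name (92) and chromosome Y copies (44) were left out; none of them was called.

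From these tables group levels were solved from the mean and both fold changes, and intervals of fold changes were set at 95%. The range of a level spans both fold changes at the ends of these intervals, with the mean taken as exact. The difference between the drugs was tested with a normal test on the deposited values, tested first on simulated data. The simulated fold changes were not shrunk and had an error correlation of 0.5. They therefore do not show how the test behaves on the shrunk deposited values. Levels were divided by exon length from GENCODE 29, to which 98.3% of genes matched. Alternatives were a mean of at least 50, no filter, centring, a GC and length trend, a fold threshold of 1.5, Benjamini-Yekutieli adjustment and an error correlation of 0.5. The 10 genes and all lists were chosen with earlier results of these data known. Named besides them are the 3 genes with the smallest adjusted p per list and drug, all called chemokines and receptors, some cluster neighbours, and the nearest genes to CCR2 and CXCR4. Receptors and ligands that were not called, GNAI2, ADAM10 and marker genes were named after their values were seen. A few results that this rule covers are not reported here. Python 3.11.15, pandas 2.3.3, numpy 2.4.6, scipy 1.17.1 and matplotlib 3.10.9 were used.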

Additional observations from a re-analysis of the deposited data

How the results depend on the processing

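No paired analysis was possible because the deposited tables hold no value per library. For the same reason leaving out each replicate and edgeR's TMM against DESeq2's size factors were not run. Restricting the adjustment to genes whose mean reached 50 tests only 5 of the 10 genes. Then 4 passed under iberdomide and 4 under mezigdomide, with 1 lower under each drug. In the difference between the drugs 1 passed, higher (CX3CR1, normal test, adjusted p = 0.0471). Of all 12080 genes so tested 2480, 3979 and 24 passed in these 3 comparisons. Against a fold change of 1.5, a stricter question put to shrunk values, 3 genes passed under iberdomide, 1 of them lower. Under mezigdomide 4 passed, 2 higher and 2 lower. Of all genes tested 361 of 19497 and 515 of 20819 did so. With an error correlation of 0.5 in the difference 2 of the 10 genes passed, both higher, where 118 of 19497 genes did. Of the values of single genes under these alternatives 164 kept their direction and side of the threshold, 3 newly passed, 8 no longer passed and 0 reversed. The 5 genes with a mean under 25 normalised counts are limited by depth, with a median SE of 0.228 among genes with a mean of 5 to 25.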
